A study of Mus musculus with 27 samples.

Results

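The antibody (immunoglobulin) genes of CT26 tumors are described here. They were chosen by symbol and by read count: genes whose symbols start with Ighv, Igkv, Iglv, Ighg, Igha, Igkc, Iglc, Ighm, Ighd or Igkj, or equal Jchain, were kept where the RNA-seq reads of all 15 libraries summed to at least 20. Of 54752 genes counted, 387 had such a symbol and 157 reached the minimum. They comprised 66 heavy chain variable (V) segments, 72 kappa V segments, 3 lambda V segments, 7 heavy and 4 light chain constant genes, 2 heavy chain D segments, 1 kappa J segment (Igkj4), Jchain and Ighmbp2. Ighmbp2 encodes a DNA and RNA helicase and is no antibody gene; its symbol met the rule, so it was counted among the 157 but kept out of sums, which hold 156 genes. The read minimum is a choice made on these data: 79 of the 156 genes would fall under 20 reads without the libraries Mettl3 KO 1 and Mettl14 KO 4, among them 45 of the 72 kappa V segments. At the border, Igkv8-27 and Ighv2-4 had 20 reads and were in, and Igkv2-112 and Igkv4-50 had 19 and were out.

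CT26 cells, a colon carcinoma line of the mouse, had been transduced with guide RNAs that target Mettl3 (Mettl3 KO), Mettl14 (Mettl14 KO) or with a control guide RNA (control), and were then injected subcutaneously into the flanks of BALB/c mice. Mettl3 and Mettl14 together form the enzyme that places N6-methyladenosine on RNA, and the series compared tumors lacking either with control tumors under anti-PD-1 therapy. All groups share the line, the host strain and retroviral transduction, and the knockout applies to the injected cells, not to the host, whose immune cells keep both genes. Therapeutic antibody was given 5 times at 200 µg (10 mg/kg), first on day 11 and last on day 23. That the antibody was anti-PD-1 comes from the description of the series, since the protocols name anti-CTLA-4 and IgG as well. No source used here says whether the knockout lines were clones or pools, or how old the mice were. Each group had 5 RNA-seq libraries; 12 further samples (methylated RNA immunoprecipitation and inputs) were not analysed here. Since the labels name no animal for a library, the p-values reflect variation among these libraries, which may be technical. In bulk tumor RNA, fewer cells of a type and less RNA per cell cannot be told apart.

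An antibody pairs 2 heavy chains with 2 light chains, kappa or lambda. Developing B cells build each chain gene by joining a V segment to J (and, in heavy chains, D) segments, so every B cell clone transcribes its own V segment, followed by a constant gene. Ighm and Ighd encode the constant parts of IgM and IgD, the receptors of naive B cells; class switching replaces them with Ighg1, Ighg2b, Ighg2c, Ighg3 (IgG) or Igha (IgA). Plasma cells secrete antibody and carry far more of these transcripts than other B cells, and Jchain joins IgM and IgA into polymers. Antibody transcripts in a tumor are therefore commonly used as a mark of B lineage cells of the host.

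Some V segments are close relatives, and among those 75-base reads cannot always tell the source. A kappa pair below holds the leading kappa V segments of the libraries Mettl3 KO 1 and Mettl14 KO 4. A heavy pair holds their leading heavy V segment and its nearest relative. Each segment is shown as 300 bases of its transcript (GENCODE M21, mm10), 5′ to 3′, with bases that differ within the pair in capitals. Igkv6-32 (chr6:70074024-70074603, minus strand, transcript positions 67 to 366) and Igkv6-23 (chr6:70260409-70260955, minus strand, positions 70 to 369) were the leading kappa V segments in both libraries.
Igkv6-32: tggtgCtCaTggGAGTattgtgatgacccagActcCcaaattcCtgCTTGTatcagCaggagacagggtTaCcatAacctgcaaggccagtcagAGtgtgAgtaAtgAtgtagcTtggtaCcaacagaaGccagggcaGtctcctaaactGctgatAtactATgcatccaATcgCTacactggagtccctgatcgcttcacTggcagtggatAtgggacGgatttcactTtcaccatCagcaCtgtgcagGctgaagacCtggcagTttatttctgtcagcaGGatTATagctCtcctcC
Igkv6-23: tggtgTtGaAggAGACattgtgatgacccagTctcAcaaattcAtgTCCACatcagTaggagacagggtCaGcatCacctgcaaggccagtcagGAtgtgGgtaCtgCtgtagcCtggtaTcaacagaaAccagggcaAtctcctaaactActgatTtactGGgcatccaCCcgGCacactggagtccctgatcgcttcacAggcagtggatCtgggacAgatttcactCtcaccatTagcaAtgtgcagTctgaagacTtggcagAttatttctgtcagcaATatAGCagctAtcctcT
Ighv1-82 (chr12:115952538-115953005, minus strand, positions 87 to 386) had the most heavy V reads in both libraries, and Ighv1-80 (chr12:115912344-115912776, minus strand, positions 52 to 351) is its nearest relative among the segments compared.
Ighv1-82: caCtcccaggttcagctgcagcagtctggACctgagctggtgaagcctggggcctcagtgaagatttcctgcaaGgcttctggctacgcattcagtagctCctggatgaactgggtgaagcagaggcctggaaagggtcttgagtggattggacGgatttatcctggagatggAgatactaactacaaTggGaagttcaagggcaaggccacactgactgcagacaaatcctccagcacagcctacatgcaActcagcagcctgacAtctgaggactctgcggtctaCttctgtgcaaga
Ighv1-80: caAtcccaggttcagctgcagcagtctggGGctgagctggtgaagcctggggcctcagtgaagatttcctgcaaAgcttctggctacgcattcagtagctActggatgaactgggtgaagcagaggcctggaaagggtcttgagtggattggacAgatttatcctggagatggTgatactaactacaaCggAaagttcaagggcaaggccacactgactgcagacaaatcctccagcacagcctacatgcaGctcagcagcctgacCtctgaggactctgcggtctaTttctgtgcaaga

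The kappa pair differed at 52 of the 300 bases shown and at 70 of 366 aligned bases (80.9% identity), and the heavy pair at 12 of the 300 and at 16 of 351 (95.4% identity). Among all segments of its chain compared, Igkv6-23 was nearest to Igkv6-15 (94.5%), Ighv10-1 to Ighv10-3 (96.7%), Ighv8-12 to Ighv8-13 (96.3%) and Ighv9-3 to Ighv9-2 (94.3%). Stretches of 75 bases that also occur in another gene's transcript were counted for the 154 members long enough to hold one. None occurred in 65 of them, among them Ighv1-82, Igkv6-32, Ighm, Ighg1, Igkc and Jchain, and the highest share was 59.5% of a kappa V segment's stretches. The reference genome is of strain C57BL/6, and the antibody loci of BALB/c mice differ from it: BALB/c mice carry Ighg2a in place of Ighg2c. Joined and mutated V segments also align less well than the germline sequence. Reads may therefore be assigned to a related segment or lost, and the reads listed under Ighg2c may stem from its BALB/c counterpart; neither was tested.

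Libraries had 4354273 to 20978633 reads on genes. Reads that fell outside genes or were unassigned made up 56.8% to 86.2% of a library, most in control 1 (86.2%), Mettl3 KO 4 (85.5%) and Mettl3 KO 1 (84.3%). Mettl3 itself stood at 13.4, 21.1, 19.5, 20.1 and 22.7 CPM (read counts scaled to library size, on a common TMM scale over the 15 libraries) in controls 1 to 5 and at 12.4 to 16.2 CPM in Mettl3 KO libraries. Control 1 lay inside the Mettl3 KO range and the other 4 controls above it, a log2 fold change of -0.56 (SE 0.15, edgeR quasi-likelihood test, adjusted p = 0.0545). Mettl14 stood at 61.0 to 89.1 CPM in control and 48.7 to 79.4 CPM in Mettl14 KO libraries, which overlap (log2 fold change -0.21, SE 0.17, edgeR test, adjusted p = 0.735). Of the line's epithelial markers, Krt20, a keratin of intestinal epithelium, lay between 29.4 and 212 CPM in every library, and Epcam at 0.351 to 6.15 CPM.

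Antibody transcripts were scarce in most tumors and abundant in 2. The 156 genes summed to 93.5, 19.5, 17.1, 26.7 and 10.5 CPM in controls 1 to 5. In Mettl3 KO libraries 1 to 5 they summed to 1530, 78.5, 112.8, 124.2 and 48.2 CPM, and in Mettl14 KO libraries 1 to 5 to 125.0, 95.3, 40.02, 1479 and 35.2 CPM. Mettl3 KO 1 and Mettl14 KO 4 stood more than 10 times above every other library, and control 1 lay inside the range of both knockouts. Group means were 33.4 ± 34.1 CPM for control, 378.8 ± 644.3 for Mettl3 KO and 354.9 ± 629.6 for Mettl14 KO tumors (SD, n = 5 each). Without the highest library of each group they were 18.4 ± 6.68, 90.9 ± 34.5 and 73.9 ± 43.6 CPM (SD, n = 4 each). Mettl3 KO 1 held 39.9% and Mettl14 KO 4 38.6% of the summed CPM of all 15 libraries. Even there, antibody genes took 0.129% and 0.149% of the reads on genes.

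**Figure D1:**
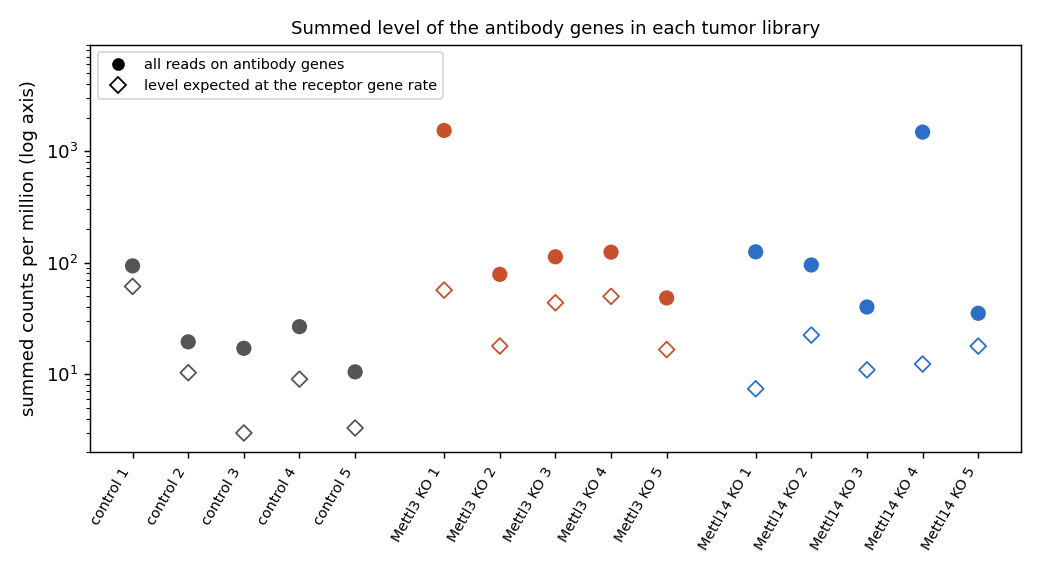
Summed level of the 156 antibody genes in each library (filled circles, CPM, log axis), and the level those genes would have at the reads per kilobase of olfactory and vomeronasal receptor genes in the same library (open diamonds). Mettl3 KO 1 (1530 CPM) and Mettl14 KO 4 (1479 CPM) stand above the other 13 libraries, which lie between 10.5 and 125.0 CPM.

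Low sums have to be read against reads that fall on genes with no expression expected in a tumor. Olfactory and vomeronasal receptor genes, used by sensory neurons of the nose, served as that yardstick (1965 genes, 5939 kb of exons). They had 5.33, 1.5, 0.503, 2.31 and 0.923 reads per kilobase in controls 1 to 5, between 1.92 and 3.69 in Mettl3 KO and between 1.16 and 2.48 in Mettl14 KO libraries. Control 1 had the highest rate of all. At that rate the 156 genes would have received 380 of the 581 reads they had in control 1, 107 of 203 in control 2 and 249 of 6712 in Mettl3 KO 1. Beyond it, sums were 32.3, 9.18, 14.1, 17.6 and 7.20 CPM in controls 1 to 5, 31.6 to 1473 CPM in Mettl3 KO and 17.3 to 1467 CPM in Mettl14 KO libraries.

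V segments followed the same yardstick in most tumors. All 113 heavy V segments annotated as genes, members or not, had 0.734 to 1.30 times the receptor rate in the 5 controls, 4.50 times in Mettl3 KO 1 and 1.12 to 1.48 times in the other 4 Mettl3 KO libraries. In Mettl14 KO libraries 1 to 5 they had 3.34, 1.85, 1.29, 15.6 and 1.28 times that rate. The 100 kappa V segments annotated as genes had 0.797 to 1.12 times the rate in controls, 5.14 times in Mettl3 KO 1, 1.21 to 1.45 times in the other Mettl3 KO libraries, and 3.49, 1.31, 1.38, 21.2 and 1.15 times in Mettl14 KO libraries 1 to 5. The 130 V pseudogenes, which are not expected to make antibody, stayed between 0.434 and 1.75 times the receptor rate in all 15 libraries, with the highest value in Mettl14 KO 4. Only in Mettl3 KO 1, Mettl14 KO 1 and Mettl14 KO 4 did both kinds of V genes exceed 3 times the rate. Constant genes lay above it in every library, at 1.43 times in control 1, 2.42 to 18.9 times in the other controls, 80.1 times in Mettl3 KO 1, 48.6 times in Mettl14 KO 1 and 370.4 times in Mettl14 KO 4.

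**Figure D2:**
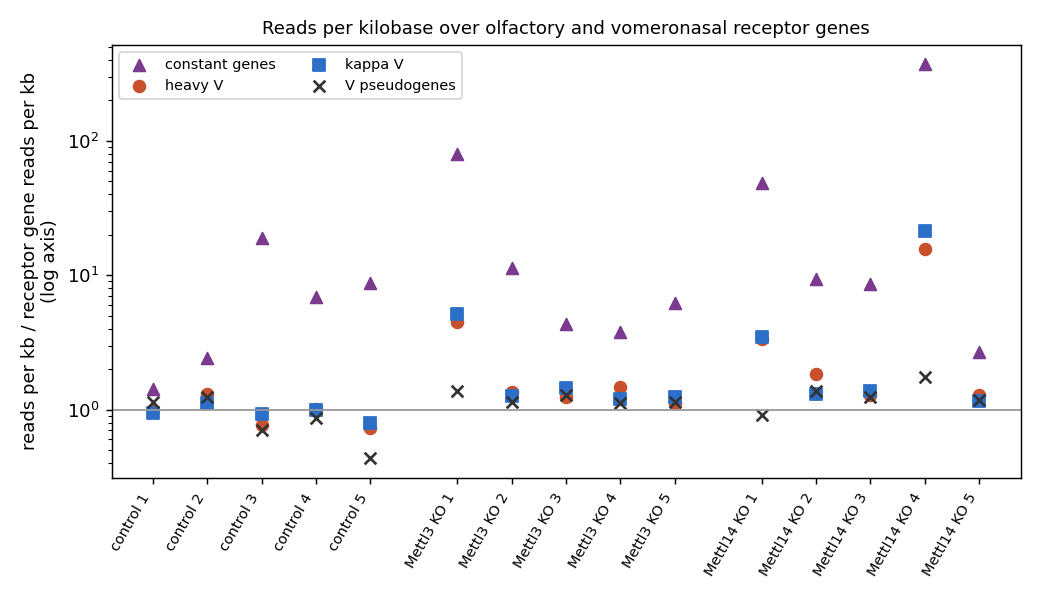
Reads per kilobase of constant genes (triangles), heavy V genes (circles), kappa V genes (squares) and V pseudogenes (crosses), divided by those of receptor genes in the same library (log axis; the line marks 1). V genes leave the line in Mettl3 KO 1, Mettl14 KO 1 and Mettl14 KO 4, while pseudogenes stay between 0.434 and 1.75 in all libraries.

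Among the constant genes, Ighm, the heavy chain of IgM, had 4.67, 2.78, 12.2, 9.36 and 3.35 CPM in controls 1 to 5. It had 197, 21.9, 23.7, 15.5 and 16.4 CPM in Mettl3 KO libraries 1 to 5, each above every control, and 43.5, 25.8, 11.7, 369 and 4.43 CPM in Mettl14 KO libraries 1 to 5, where replicates 3 and 5 lay inside the control range. In the Mettl3 KO group it was higher in 5 of 5 libraries than in all controls, the only constant gene of which this held. Its log2 fold change was 3.03 (SE 0.80, edgeR adjusted p = 0.0529) in Mettl3 KO and 3.71 (SE 1.05, edgeR adjusted p = 0.243) in Mettl14 KO tumors.

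Ighg1, the constant gene of the main IgG subclass, ran from near absence to levels above Ighm in Mettl3 KO 1 and slightly below it in Mettl14 KO 4. Controls 1 to 5 had 3.38, 0.0960, 0.166, 1.20 and 0.899 CPM, and control 2 held 1 read. Mettl3 KO libraries 1 to 5 had 405, 11.1, 6.02, 8.13 and 1.09 CPM, and Mettl14 KO libraries 1 to 5 had 18.5, 5.89, 2.37, 348 and 1.31 CPM. Replicate 5 of both knockouts, and Mettl14 KO 3, lay under control 1. The log2 fold changes were 6.39 (SE 1.64, edgeR adjusted p = 0.0524) and 6.12 (SE 1.62, edgeR adjusted p = 0.220), and 2.58 without Mettl3 KO 1 and 2.65 without Mettl14 KO 4.

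Igkc, the kappa light chain constant gene, had 1.45, 0.864, 0.497, 1.59 and 0.949 CPM in controls 1 to 5. It had 398, 8.75, 5.47, 3.97 and 1.58 CPM in Mettl3 KO and 19.6, 9.32, 3.82, 303 and 1.01 CPM in Mettl14 KO libraries 1 to 5. In each knockout 4 libraries stood above all controls and replicate 5 lay within their range. Log2 fold changes were 6.27 (SE 1.59, edgeR adjusted p = 0.0524) and 5.89 (SE 1.42, edgeR adjusted p = 0.189). They were 2.28 without Mettl3 KO 1 and 2.95 without Mettl14 KO 4.

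Jchain, which links antibody units into polymers and marks secreting cells, had 3.06, 1.15, 0.331, 0.985 and 0.549 CPM in controls 1 to 5. Mettl3 KO libraries 1 to 5 had 116, 2.71, 4.19, 4.73 and 0.972 CPM, and Mettl14 KO libraries 1 to 5 had 8.82, 6.17, 0.922, 96.1 and 0.504 CPM. Control 1 lay above replicates 2 and 5 of Mettl3 KO and above replicates 3 and 5 of Mettl14 KO. The log2 fold changes were 4.54 (SE 1.31, edgeR adjusted p = 0.0579) and 4.29 (SE 1.27, edgeR adjusted p = 0.249), and 1.47 and 1.78 without Mettl3 KO 1 and Mettl14 KO 4.

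**Figure D3:**
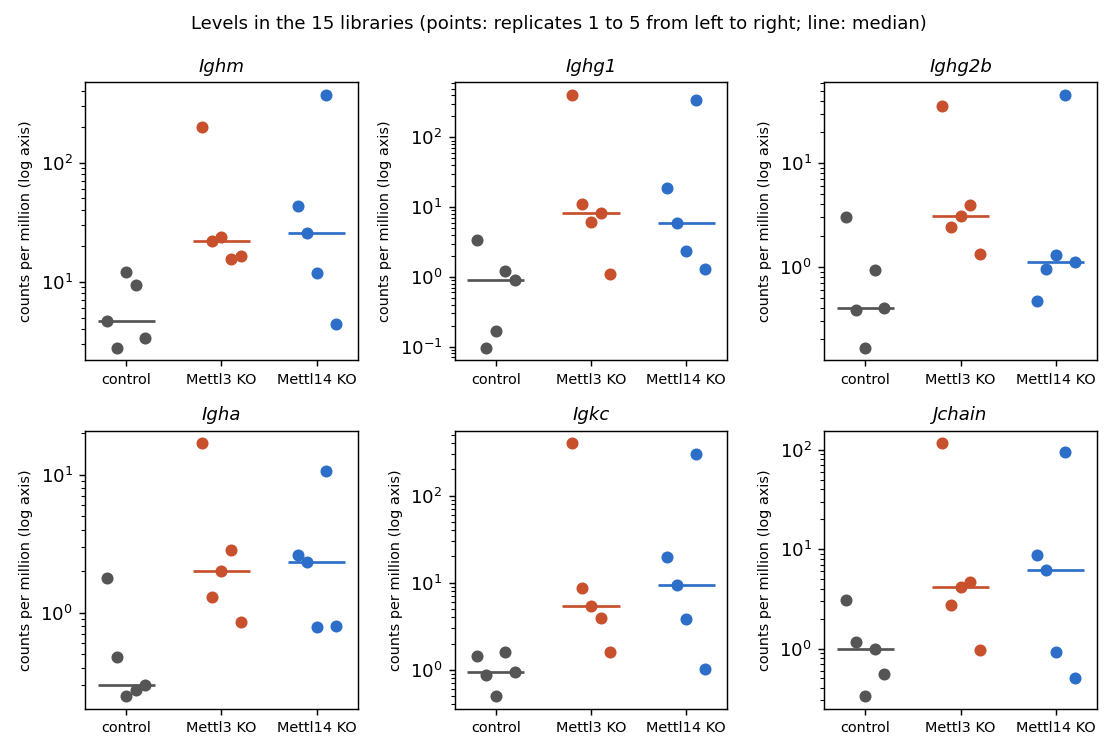
CPM (log axis) of Ighm, Ighg1, Ighg2b, Igha, Igkc and Jchain in the 5 libraries of each group (points, replicates 1 to 5 from left to right; line, group median). In every panel the highest points are Mettl3 KO 1 and Mettl14 KO 4, and replicate 5 of at least 1 knockout lies within the control range in every panel.

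The other constant genes were lower. Ighg2b had 0.166 to 3.06 CPM in control, 35.6 CPM in Mettl3 KO 1 and 45.6 CPM in Mettl14 KO 4, against at most 3.97 CPM in the remaining knockout libraries. Igha reached 16.9 and 10.7 CPM in the same libraries and at most 2.84 CPM elsewhere, with 0.248 to 1.77 CPM in control. Ighd, of naive B cells, reached 7.75 and 6.65 CPM there and at most 3.02 CPM elsewhere, with 0.248 to 1.77 CPM in control. Ighg3 stood less apart in those libraries, at 0.166 to 3.54 CPM in control, 1.41 to 7.07 in Mettl3 KO and 0.993 to 3.99 in Mettl14 KO libraries. Log2 fold changes in Mettl3 KO and Mettl14 KO tumors were 3.29 and 3.35 for Ighg2b, 3.0 and 2.51 for Igha, 2.44 and 1.89 for Ighd and 1.67 and 0.75 for Ighg3. Their edgeR adjusted p ran from 0.0608 to 0.849. The reads listed under Ighg2c were 2, 0, 1, 5 and 7 in controls 1 to 5, 113 in Mettl3 KO 1 and 278 in Mettl14 KO 4, against 1 to 11 in the other knockout libraries. The lambda constant genes Iglc1, Iglc2 and Iglc3 had 48, 50 and 18 reads in Mettl3 KO 1, 88, 113 and 32 in Mettl14 KO 4, and at most 14 in any other library.

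Across all genes, the edgeR quasi-likelihood test with Benjamini-Hochberg adjustment at 0.05 called 1.24% of 21427 genes in Mettl3 KO against control, 0% of 21555 in Mettl14 KO against control and 0% of 24566 in Mettl3 KO against Mettl14 KO. Of the 157 members, 9 passed the count filter in each comparison (Ighm, Ighd, Ighg1, Ighg2b, Ighg3, Igha, Igkc, Jchain and Ighmbp2), and 0 were called in each. At an unadjusted p under 0.05 there were 7 of 9 members and 32.3% of all genes in Mettl3 KO, 7 of 9 and 11.3% in Mettl14 KO, and 0 of 9 and 12.8% between the knockouts. The median log2 fold change of the 9 was 3.03 in Mettl3 KO, 3.35 in Mettl14 KO and 0.18 between the knockouts, beside -0.14, -0.08 and -0.01 for all genes tested; genes that passed the filter only through high libraries had to differ, so this median is a description. Both control comparisons share the same 5 controls.

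Library choice and method moved these calls. Without control 1, edgeR called 8 of 9 members in Mettl3 KO tumors (all but Ighmbp2), where it also called 11623 genes of 22535, and 2 members (Igha and Ighd) in Mettl14 KO tumors, with 1053 genes of 21687. DESeq2 called 1 member in Mettl3 KO (Igha), 3 in Mettl14 KO (Jchain, Ighm and Igha) and 0 between the knockouts, and limma voom called 2 (Ighm and Ighd), 0 and 0. Over all genes DESeq2, with a filter of its own, called 2185, 262 and 60. The number of genes it tested is not given here, so its member calls cannot be read against a share of all genes. Voom, on the genes that edgeR tested, called 5031 of 21427, 0 of 21555 and 0 of 24566. In the authors' deposited table for Mettl14 KO, Jchain had a log2 fold change of 4.19 (adjusted p = 0.0304) and Ighm 3.77 (adjusted p = 0.0177), and in the authors' deposited table for Mettl3 KO, Igha had 3.69 (adjusted p = 0.00810). Igkc and Ighg1 carry no p-value in either of the authors' deposited tables. For Mettl3 KO the authors give none for Jchain (4.59) and Ighm (3.23) either, and for Mettl14 KO no adjusted p-value for Igha (3.01). Only 3 of 157 members have an adjusted p-value for Mettl14 KO and 2 for Mettl3 KO, Ighmbp2 among them in both. These calls therefore do not compare the knockouts. Control 1 had the highest receptor rate and the highest share of reads outside genes; their part in the calls was not tested.

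Between the knockouts, log2 fold changes of Mettl3 KO over Mettl14 KO lay between -0.75 (Ighm, SE 0.96) and 0.85 (Ighg3, SE 0.69), all with edgeR adjusted p of 0.424 or more. With standard errors above 1.1 for Igkc, Ighg1, Ighg2b and Jchain, differences of several fold were not detectable at this spread. Left out alone, Mettl3 KO 1 took the value for Igkc from 0.29 to -3.70, and Mettl14 KO 4 took it to 3.34. Ighmbp2, the helicase, had 10.3 ± 2.27 CPM in control tumors, 10.0 ± 2.16 in those of Mettl3 KO and 10.6 ± 0.905 in those of Mettl14 KO (SD, n = 5 each), with log2 fold changes of -0.11 and -0.01 against control.

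The mix of constant genes was compared as shares of reads per kilobase, so that gene length does not enter. In control tumors Ighm led, with 30.3% in control 1 and 59.8% to 93.1% in the other 4, on 53 to 246 heavy constant reads per library. Ighg1 led in Mettl3 KO 1, at 50.9% beside 34.1% for Ighm, on 3050 reads. In Mettl14 KO 4 the order was the reverse, 52.5% for Ighm and 36.1% for Ighg1, on 10304 reads. Mettl14 KO 1, next in antibody reads with 1157 heavy constant reads, had 70.7% Ighm and 21.9% Ighg1. The remaining 7 knockout libraries had 42.5% to 73.2% Ighm and 3.55% to 22.0% Ighg1. With the receptor rate subtracted, Ighm took 54.4% in control 1 and 65.3% to 96.6% in the other controls, 34.4% in Mettl3 KO 1 and 52.7% in Mettl14 KO 4, where Ighg1 took 51.6% and 36.1%. Among light chains, kappa made up 97.7% in Mettl3 KO 1, 97.9% in Mettl14 KO 4 and 97.5% in Mettl14 KO 1, and between 72.0% and 97.3% in the other 12 libraries, the lowest again in control 1.

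**Figure D4:**
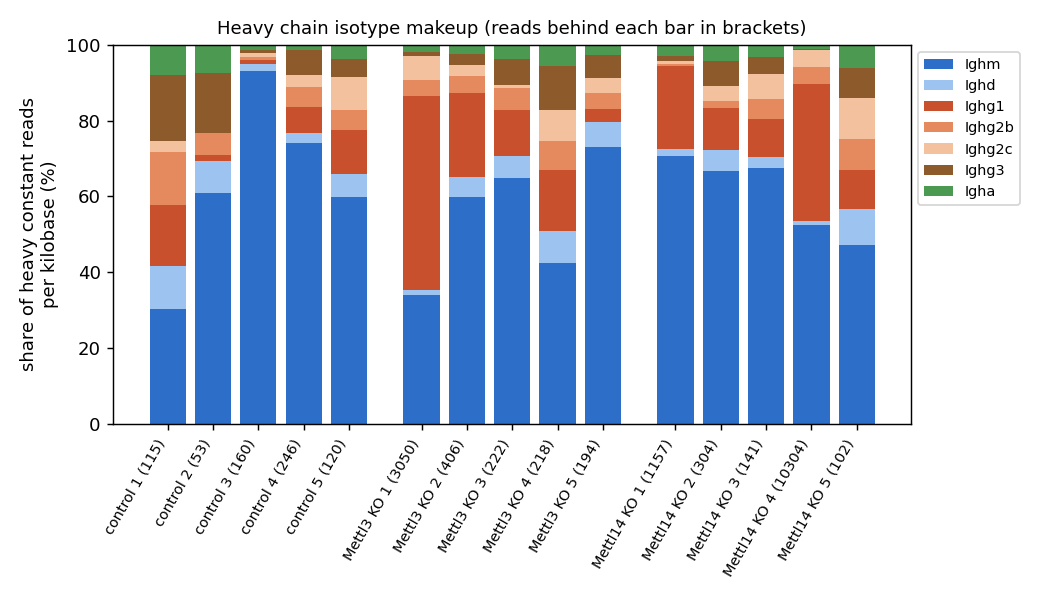
Share of each heavy chain constant gene in the reads per kilobase of all 7, per library (stacked bars, %); brackets give the reads behind each bar. Ighg1 takes 50.9% in Mettl3 KO 1 and 36.1% in Mettl14 KO 4, while Ighm takes 59.8% to 93.1% in controls 2 to 5.

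V segment reads were spread over many segments. All shares below carry exact (Clopper-Pearson) 95% binomial intervals, which cover counting error only. In Mettl14 KO 4, 65 of 66 heavy V segments had a read among 1381; Ighv1-82 led with 217 reads (15.7%, interval 13.8 to 17.7), then Ighv9-3 with 143 (10.4%, 8.80 to 12.1), Ighv1-80 with 92 (6.66%, 5.40 to 8.11) and Ighv5-17 with 76. In Mettl3 KO 1, all 66 had a read among 616. Ighv1-82 again led with 62 reads (10.1%, 7.80 to 12.7), followed by Ighv10-1 with 52 (8.44%, 6.37 to 10.9), Ighv1-9 with 50 and Ighv8-12 with 42. The read minimum favors such counts, since 29 of the 66 fall under 20 reads without these 2 libraries. Without the minimum, 119 of 185 segments had a read in Mettl14 KO 4 and 138 of 185 in Mettl3 KO 1. A single read can also come at the receptor rate, so having a read is not usage. The effective number of segments, the number of equally used segments that would give the same concentration of reads (inverse Simpson index), was 18.4 in Mettl14 KO 4 and 24.8 in Mettl3 KO 1. In the other 11 libraries with at least 50 heavy V reads it lay between 26.4 and 44.6. With the reads expected at the receptor rate subtracted, it was 17.4 in Mettl14 KO 4 and 20.4 in Mettl3 KO 1, and 18.1 to 33.0 in the other 11, with control 1 at 18.1 and Mettl3 KO 5 at 19.5; Mettl3 KO 1 then lay inside their range. No single segment made up the bulk of reads in any library.

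Kappa V reads were also spread over many segments. In Mettl14 KO 4, Igkv6-32 led with 260 of 1675 reads (15.5%, 13.8 to 17.3), then Igkv6-23 with 221 (13.2%, 11.6 to 14.9), Igkv3-4 with 123 (7.34%, 6.14 to 8.70) and Igkv10-96 with 98. In Mettl3 KO 1, Igkv6-32 had 46 of 602 reads (7.64%, 5.65 to 10.1), Igkv6-23 44 (7.31%), Igkv17-121 34, Igkv4-59 33, and Igkv3-2 and Igkv1-135 32 each. The effective numbers were 15.97 and 29.8. Mettl14 KO 1 differed in its leader: Igkv14-126 had 29 of 209 kappa V reads (13.9%, 9.49 to 19.3), and Igkv6-32 had 1. Its effective number was 21.8, and its heavy V reads were led by Ighv11-2 and Ighv5-6 with 16 each of 241. The other 10 libraries with at least 50 kappa V reads had effective numbers of 28.0 to 49.5 and no segment above 9 reads. With the receptor rate subtracted in the same way, these were 21.5 to 28.6 (control 1 moved from 49.5 to 23.1). Mettl3 KO 1 lay inside the range of these 10 libraries both before subtraction (29.8) and after it (24.9). After subtraction Mettl14 KO 1 had 16.9 and Mettl14 KO 4 15.2. The limit given for heavy V segments holds here too.

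**Figure D5:**
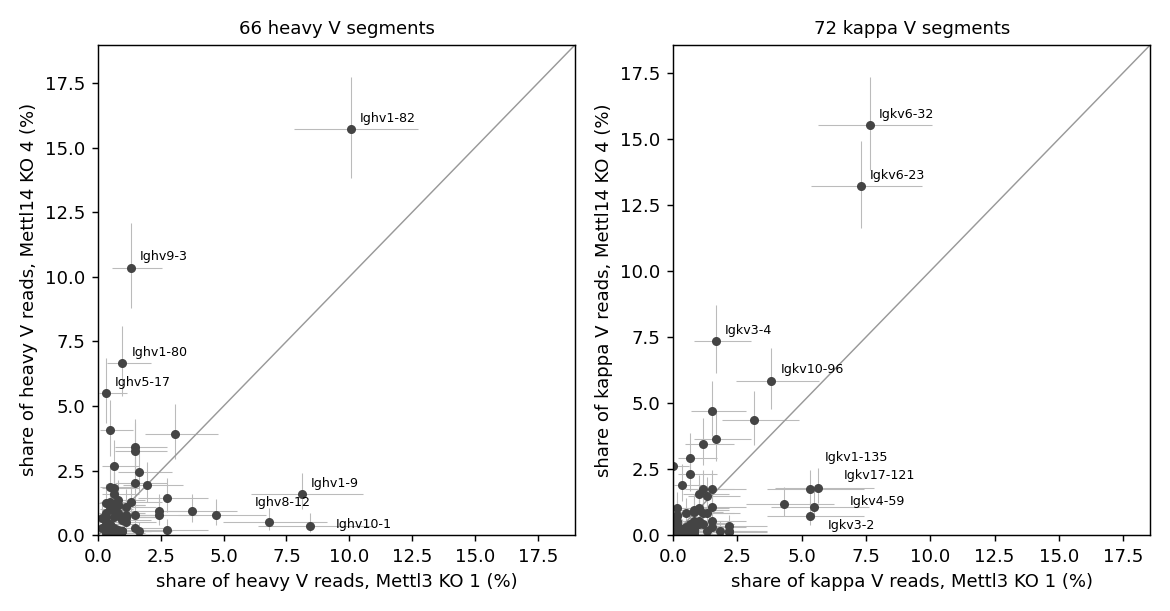
Share of each heavy V (left) and kappa V (right) segment in the V reads of Mettl3 KO 1 (x axis, %) and Mettl14 KO 4 (y axis, %), with exact 95% binomial intervals; the line marks equal shares. Ighv1-82, Igkv6-32 and Igkv6-23 are high in both, while Ighv9-3 lies far above the line and Ighv10-1 far below it.

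The leading segments of Mettl3 KO 1 and Mettl14 KO 4 were shared in part. Of the heavy V segments ranked 10 or better (11 with ties in Mettl3 KO 1, 10 in Mettl14 KO 4), 2 were in both lists, 18.2% and 20% of each. Of the kappa segments (12 with ties and 10), 4 were in both, 33.3% and 40%. Intervals of the share did not overlap for 13 of 66 heavy segments, 7 higher in Mettl3 KO 1 and 6 in Mettl14 KO 4, and for 18 of 72 kappa segments, 10 and 8. Ighv9-3 had 8 reads in Mettl3 KO 1 against 143 in Mettl14 KO 4, and Ighv10-1 52 against 5. These are comparisons of 2 libraries, not of the knockouts.

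By gene, Ighv1-82 and Igkv6-32 had few reads outside those libraries, and other leading segments had more. Ighv1-82 had 0, 0, 0, 3 and 1 reads in controls 1 to 5, 62, 3, 1, 2 and 0 in Mettl3 KO, and 0, 2, 0, 217 and 0 in Mettl14 KO libraries. Igkv6-32 had 2, 1, 0, 4 and 0 reads in controls, 46, 4, 0, 2 and 0 in Mettl3 KO, and 1, 5, 1, 260 and 2 in Mettl14 KO libraries. Igkv6-23, Igkv10-96, Igkv14-111 and Igkv1-135 had at most 5 reads in any control. Mettl14 KO 1 had 2, 9, 10 and 15 reads of these segments and 14 of Ighv9-3, and Mettl3 KO 2 had 9 of Igkv1-135. Ighv10-1 had 12 reads in Mettl3 KO 4 and 7 in control 1, and Ighv8-12 had 13 in Mettl14 KO 2. Ighv8-14, a pseudogene among the 6 heavy V members with the highest summed CPM, ran otherwise: its 20 reads in control 1 were its highest count, and it had 7 in both Mettl3 KO 1 and Mettl14 KO 4. The 3 lambda V segments Iglv1, Iglv2 and Iglv3 had 27, 17 and 15 reads in Mettl3 KO 1, 100, 68 and 34 in Mettl14 KO 4, and at most 8 in any other library. The D segments Ighd3-1 and Ighd3-2, with exons of 17 and 16 bases, had 22 and 20 reads in all, at most 4 per library, and Igkj4 had 26, of which 7 and 11 were in those 2 libraries.

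Which library was highest for each member is given as a description, since 79 of the 156 genes reached the read minimum only with the reads of Mettl3 KO 1 and Mettl14 KO 4, which partly fixes the answer. Mettl3 KO 1 was the library with the highest CPM for 70 of the 156 antibody genes (44.9%), beside 15.98% of all 40313 genes. Mettl14 KO 4 was highest for 51 (32.7%), beside 6.86% of all genes. Next came Mettl3 KO 4, highest for 10.3% of the antibody genes, beside 19.7% of all genes. Control 1 was highest for 13 members (8.33%), 9 of them V pseudogenes, beside 19.3% of all 40313 genes. The median share of a member's summed CPM that lay in its highest library was 38%. This share was above 50% for 33 of 156 members (21.2%), 31 of them V genes, and 0 of 24 V pseudogenes, beside 0.139% of all 40313 genes. The read minimum limits these comparisons, as stated. Ighv1-9 had the highest share, 76.8%, in Mettl3 KO 1. Mettl3 KO 1 and Mettl14 KO 4 together held 92.6% of the summed CPM of Ighg1, 92.3% of Igkc, 85.8% of Jchain, 74.4% of Ighm and 30.9% of Ighg3.

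Few members separated the groups without overlap. Every Mettl3 KO library lay above every control for 3 of 157 members (1.91%), beside 1.7% of the 40313 genes with at least 20 reads. They were Ighm and the V pseudogenes Ighv1-14 and Ighv5-1, of which each pseudogene had 1 read in all controls together. Every Mettl14 KO library lay above every control for 5 of 157 (3.18%), beside 0.499%: Ighg2c, Ighv5-17, Igkv14-126, Igkv5-48 and Iglc3. Of these, Igkv14-126 had 1 read in all controls and 29, 3, 1, 58 and 3 in Mettl14 KO libraries 1 to 5, and Igkv5-48 had 1 read against 1, 1, 1, 2 and 1. Ighg2c had 6 reads in Mettl14 KO 1 and 7 in control 5. Ighv5-17 had 1 read in Mettl14 KO 2 and 3 and 1 in controls 2 and 4, and Iglc3 had 2 in Mettl14 KO 3 and 1 in control 1. At such counts the order of libraries rests in part on their size. Without control 1 the counts were 39 of 157 (24.8%, beside 27.7% of all genes) and 14 of 157 (8.92%, beside 6.11%). No member was lower in every knockout library than in every control, in either knockout.

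As a sum, B cell genes were highest in the same 2 tumors, which did not hold for every list of the B lineage. The 20 B cell genes summed to 59.8 to 146 CPM in control libraries, with the top value in control 1, to 313 CPM in Mettl3 KO 1 and 305 CPM in Mettl14 KO 4, and to 89.4 to 170 CPM in the other knockout libraries. None of 18 tested passed in Mettl3 KO and none of 20 in Mettl14 KO tumors (medians 1.09 and 0.99; edgeR), and 8 and 6 had an unadjusted p under 0.05, as did 32.3% and 11.3% of all genes tested; the same shares stand behind the counts for each list that follows. Ms4a1 (CD20) had 26.0 CPM in Mettl3 KO 1 and 17.8 CPM in Mettl14 KO 4 and at most 7.56 CPM elsewhere, and Cd79a, a signalling chain of the B cell receptor, 6.84 and 5.79 CPM against at most 2.74 CPM. Among the lowest p in Mettl3 KO were those of Cd72 and Cxcr5 (log2 fold changes 1.22 and 1.90), and in Mettl14 KO those of Cd72, Cd37 and Blnk (1.48, 1.02 and 0.63).

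Plasma cell genes gave a mixed picture. Mzb1, a chaperone of antibody assembly, had 6.61 CPM in Mettl3 KO 1 and 7.12 CPM in Mettl14 KO 4, against at most 1.70 CPM in the other libraries. Tnfrsf17 (BCMA), a survival receptor of plasma cells, did not follow, with 0.597 to 1.61 CPM over the 15 libraries. Sdc1 (CD138), which epithelial tumor cells also carry, had 19.3 to 61.6 CPM, and Xbp1, a factor of secretory cells in general and named after its values were seen, 44.6 to 127 CPM. None of 16 plasma cell and antibody secretion genes tested passed in either knockout (medians -0.04 and 0.39; edgeR), and 7 and 4 had an unadjusted p under 0.05, beside 32.3% and 11.3% of all genes. Slamf7 and Irf4 had the lowest p in both, with log2 fold changes of 2.14 and 1.70 in Mettl3 KO and 2.08 and 1.68 in Mettl14 KO tumors, next to Txndc5 (-0.82) in the first and Tnfrsf13b (0.82) in the second. The list summed to 461 CPM in Mettl3 KO 1 and 773 CPM in Mettl14 KO 4, against 338 to 651 CPM in control libraries. These lists hold genes of other cells too, so their sums do not measure plasma cells alone.

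None of the 12 germinal center and class switch genes tested passed in Mettl3 KO and none of 11 in Mettl14 KO tumors (medians 0.93 and 0.50; edgeR; unadjusted p under 0.05 for 6 and 5). Cd40, which receives T cell help, had 1.5 and 1.41 and Icosl 1.13 and 0.87. S1pr2 had -0.48 in Mettl3 KO and Icos 1.58 in Mettl14 KO. The germinal center list summed to 187 CPM in Mettl3 KO 1 and 238 CPM in Mettl14 KO 4, against 155 to 206 CPM in control libraries. Of 8 early B cell and recombination genes 4 and 2 were tested, and none passed (edgeR; unadjusted p under 0.05 for 1 and 1); Il7r had 1.19 and 1.64, Rag1 1.10 and 0.07, and Rag2 0.84 in Mettl3 KO. Of the lymphoid tissue and B cell survival factors, 9 were tested and none passed (medians 1.35 and 0.76; edgeR; unadjusted p under 0.05 for 5 and 5). Among them Cxcl12 had 2.06 and 2.32, with Ltb at 1.81 in Mettl3 KO and Ccr7 at 1.96 in Mettl14 KO. Cxcl13, which draws B cells into follicles, had 47.6 CPM in Mettl3 KO 1 and 68.8 CPM in Mettl14 KO 4, against 0.672 to 20.1 CPM in the other 13 libraries. It was named after its values were seen, and the sum of its list ran otherwise. That sum was highest in Mettl3 KO 5 (566 CPM), above Mettl14 KO 4 (430 CPM) and Mettl3 KO 1 (365 CPM).

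Antibody receptors and T cells complete the setting. Of 9 antibody transport and Fc receptor genes tested, Trim21, a cytosolic antibody receptor, was called in Mettl3 KO tumors. It had 18.2, 21.7, 22.1, 24.1 and 21.3 CPM in controls and 34.9, 36.1, 29.7, 31.2 and 34.1 CPM in Mettl3 KO libraries, which do not overlap (log2 fold change 0.57, with SE 0.12 and edgeR adjusted p = 0.0484). This call was lost in 11 of 18 alternatives, with adjusted p from 0.00177 to 0.344. In Mettl14 KO tumors none of 9 passed (Fcgr1 1.15, Fcgr4 1.62 and Trim21 0.77; list medians 0.57 and 0.24). The 15 T cell genes had medians of 1.43 and 1.54, and none passed (edgeR; unadjusted p under 0.05 for 14 and 11). Their sums were 23.0 to 76.6 CPM in control, 270 CPM in Mettl3 KO 1, 417 CPM in Mettl14 KO 4 and 49.3 to 163 CPM in the other knockout libraries. The lowest p were those of Lck, Trbc2 and Trac (1.23, 1.66 and 1.95) in Mettl3 KO and of Lck, Trac and Cd2 (1.54, 2.21 and 2.23) in Mettl14 KO tumors. Between the knockouts no gene of the 7 lists passed (edgeR); an unadjusted p under 0.05 was found for 4 of 18 plasma cell, 3 of 12 germinal center and 1 of 9 Fc receptor genes and for 0 in the other 4 lists, beside 12.8% of all genes. Sdc1 had a log2 fold change of -0.82, Fcgr2b -0.66 and Bcl6 -0.35.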

How the data were processed

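RNA of CT26 tumors was sequenced as single reads of 75 nucleotides, per the labels' protocols; the extract protocol gives ribosomal depletion and the molecule label polyA RNA. Build mm10 and the tools HTSeq 0.11.2, HISAT2 2.1.0, DESeq2 and cutadapt 1.18 stand in the submitters' processing notes; no source used here states the annotation release or the strand setting. Each knockout has a table in which the authors deposited read counts per gene, not normalized; its 5 control columns recur in the other table and were used once. The authors also deposited log2 fold changes with p-values for each knockout, per the file headers. Lines for reads on no gene, ambiguous or unaligned reads (56.8% to 86.2% of a library) were left out. Where title (Mettl14) and genotype field (Mettl4) of a sample differ, the title was used. Groups and replicate numbers came from titles.

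Counts were tested with edgeR 4.0.16 (R 4.3.3; quasi-likelihood, robust, filterByExpr at a minimum count of 10, TMM, Benjamini-Hochberg at 0.05), on 10 libraries for each control comparison and on all 15 between the knockouts. Adjusted p-values were taken over all genes tested. In simulated counts the test was checked for known changes. Reads per kilobase used GENCODE M21 exons. V segments and shares were described without a test, in libraries with at least 50 reads. Alternatives were RLE scaling, library totals, other filters, DESeq2 1.42.0, limma 3.58.1 voom, the replicate number as a block, and leaving out each library. The rule for named genes took every constant gene, Jchain, Ighmbp2, the V segments with the highest summed CPM (6 heavy, 6 kappa, 3 lambda) or leading in a library, called members, genes at the read minimum, B lineage markers (among them Ms4a1, Cd79a, Sdc1, Mzb1 and Tnfrsf17), both targets, and of 7 lists the called genes or else the 3 with the lowest p. Some genes that the rule names are not reported here. Members and lists were chosen with earlier results of these data known.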

Additional observations from a re-analysis of the deposited data

Results flagged for a closer look

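In each group of 5 libraries, the gaps of the highest and of the lowest library to the nearest neighbor were divided by the group's range. The larger was kept, and a gap above 0.71 (Dixon's 95% critical value) marks a library that stands apart. Of 99 groups examined (33 quantities in 3 groups) 69 held such a library. Chance marks about 1 in 20 groups of independent quantities, but these share their libraries, and the 15 V segments among them were named for their high summed CPM, so the count cannot be read against that rate. Mettl3 KO 1 stood apart in 27, Mettl14 KO 4 in 26, control 1 in 15 and Mettl14 KO 2 in 1.

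The gap of Mettl3 KO 1 among constant genes and Jchain was 0.967 for Jchain, 0.955 for Ighm, 0.975 for Ighg1, 0.923 for Ighg2b, 0.926 for Ighg2c, 0.876 for Igha, 0.751 for Ighd, 0.982 for Igkc, 0.927 for Iglc2, 0.972 for Iglc1 and 0.862 for Iglc3. Among heavy V segments its gap was 0.973 for Ighv1-82, 0.823 for Ighv10-1, 0.953 for Ighv8-12, 0.779 for Ighv9-3 and 0.960 for Ighv1-9. Among light chain V segments the gap was 0.962 for Igkv6-32, 0.891 for Igkv6-23, 0.842 for Igkv10-96, 0.874 for Igkv14-111, 0.876 for Igkv1-135, 0.941 for Iglv1 and 0.896 for Iglv2. For quantities over many genes it was 0.949 for the summed CPM of all 156 genes, 0.894 for heavy V segments over receptor genes, 0.938 for kappa V segments over receptor genes and 0.901 for constant genes over receptor genes. 

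The gap of Mettl14 KO 4 among constant genes and Jchain was 0.913 for Jchain, 0.893 for Ighm, 0.95 for Ighg1, 0.981 for Ighg2b, 0.965 for Ighg2c, 0.815 for Igha, 0.728 for Ighd, 0.939 for Igkc, 0.918 for Iglc2, 0.949 for Iglc1 and 0.934 for Iglc3. Among heavy V segments its gap was 0.984 for Ighv1-82, 0.927 for Ighv9-3 and 0.898 for Ighv1-9. Among light chain V segments the gap was 0.969 for Igkv6-32, 0.992 for Igkv6-23, 0.931 for Igkv10-96, 0.969 for Igkv3-4, 0.898 for Igkv14-111, 0.978 for Iglv1, 0.912 for Iglv2 and 0.727 for Iglv3. For quantities over many genes it was 0.938 for the summed CPM of all 156 genes, 0.856 for heavy V segments over receptor genes, 0.884 for kappa V segments over receptor genes and 0.875 for constant genes over receptor genes. 

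The gap of control 1 among constant genes and Jchain was 0.736 for Ighg2b, 0.848 for Igha, 0.725 for Ighg3, 0.911 for Ighd, 0.95 for Iglc2 and 0.793 for Iglc1. Among heavy V segments its gap was 0.744 for Ighv10-1, 0.761 for Ighv8-12 and 0.898 for Ighv8-14. Among light chain V segments the gap was 0.830 for Igkv3-4, 0.938 for Igkv1-135, 0.897 for Iglv1, 0.743 for Iglv2 and 0.796 for Iglv3. For quantities over many genes it was 0.805 for the summed CPM of all 156 genes. 

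In Mettl14 KO 2 the gap was 0.813 for Ighv8-12, on 13 reads. Control 1 also had the highest receptor gene rate, and its part in these gaps was not tested.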

How the results depend on the processing

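Of 441 log2 fold changes recomputed under alternatives, 368 kept their direction and side of the threshold, 22 passed it, 11 (all Trim21) no longer did and 40 changed sign, all of the last between the knockouts or for Ighmbp2. The 27 recomputed means of the sums moved by less than 1 SD, but leaving out 1 library of 5 cannot move a mean that far. Without Mettl3 KO 1 the Mettl3 KO mean fell from 378.8 to 90.9 CPM. Without Mettl14 KO 4 the Mettl14 KO mean fell from 354.9 to 73.9 CPM. Members called in Mettl3 KO tumors (0) were 1 with DESeq2, 2 with voom, 8 with the replicate number as a block, and 0 to 8 without 1 library (8 without control 1). In Mettl14 KO tumors (0) they were 1 without a filter (Igkv14-126), 3 with DESeq2 and 0 to 2 without 1 library. The numbers do not pair the libraries: correlations of same-numbered libraries ran from -0.75 to 0.62, and none correlated best with its own number. Ighmbp2 reversed with library totals (0.063 in Mettl3 KO, 0.16 in Mettl14 KO) and, in Mettl14 KO, with the block (0.012). Between the knockouts, library totals gave -0.055 for Ighg1 and -0.069 for Jchain, and the replicate block 0.50 for Ighg2b and 0.11 for Ighm. The cause was not tested.

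Without 1 library each, values between the knockouts ran from -0.97 to 1.58 for Igha, -0.045 to 1.52 for Ighd, -3.46 to 3.64 for Ighg1, -1.83 to 3.30 for Ighg2b, -2.18 to 1.43 for Ighm, -3.70 to 3.34 for Igkc, -2.82 to 2.68 for Jchain and -0.18 to 0.040 for Ighmbp2. Ighmbp2 ran from -0.27 to 0.16 in Mettl3 KO and -0.085 to 0.12 in Mettl14 KO against control. Members above every control ran from 3 to 39 in Mettl3 KO and 5 to 14 in Mettl14 KO. They numbered 39 and 14 without control 1 (24.8% and 8.92%, beside 27.7% and 6.11% of all genes). Without Mettl3 KO 2, 3, 4 and 5 they numbered 8, 7, 6 and 18 (5.10%, 4.46%, 3.82% and 11.5%, beside 3.07%, 2.07%, 1.93% and 2.68% of all genes), and without Mettl14 KO 3, 11 (7.01%, beside 0.833%). Median effective numbers without the read minimum for members were 58.2, 59.2 and 47.4 (heavy) and 64.3, 64.3 and 51.2 (kappa) in control, Mettl3 KO and Mettl14 KO tumors. With the receptor rate subtracted they were 23.0, 23.6 and 22.3 (heavy) and, in control and Mettl3 KO, 23.1 and 24.9 (kappa). Genes called in Mettl3 KO tumors (266) were 100 with RLE scaling, 121 with library totals, 62 without a filter and 78 at a mean of 1 CPM. With the block they were 6002 of the same 21427 genes that the main fit tested. They were 2185 with DESeq2, 5031 with voom, 43 with all 15 libraries and 15 to 11623 without 1 library. In Mettl14 KO tumors (0) they were 47 without a filter, 262 with DESeq2, 50 with all 15 libraries and 0 to 1053 without 1 library, and between the knockouts (0) 60 with DESeq2. Subtraction of the receptor rate, the comparison without both highest libraries, the settings for groups that do not overlap and those for Trim21 were chosen after seeing the data. Control V reads, 17 to 241 heavy reads per library, limit what can be said of segments there.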
